A study of Homo sapiens with 6 samples.

Results

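Autophagy machinery and receptor genes were followed in HCT116, a colorectal cancer cell line, after knockdown of the secreted trypsin-like protease PRSS22 with a short hairpin RNA (shPRSS22), against cells given the hairpin labelled shCtrl. There were 3 libraries of poly(A)-selected RNA in each group. The set holds 43 genes chosen by name for their roles, with earlier results of these data known, of 17269 genes in the deposited table. All 43 passed the filter on low counts, with 13104 genes tested in all, and the member with the fewest counts, ATG10, still averaged 10.4 CPM (counts per 1000000 of the scaled library). The shCtrl cells are named wild type (WT) in the genotype label, and both groups were kept in the same RPMI1640 medium with serum. The labels state no hairpin sequence, no time of harvest and no separate culture for each replicate, so p-values measure only the spread between these libraries. PRSS22 itself stood at 3.09, 3.15 and 2.61 CPM in shPRSS22 replicates 1 to 3, against 10.1, 9.38 and 10.1 CPM in shCtrl replicates 1 to 3 (log2 fold change -1.74, SE 0.135, adjusted p = 4.78e-12).

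Macroautophagy encloses cytoplasm, protein aggregates or organelles in a double membrane and delivers them to lysosomes. A kinase complex starts the process, a lipid kinase marks the site with phosphatidylinositol 3-phosphate, lipid transfer and scrambling proteins feed the growing membrane, and a pair of ubiquitin-like conjugation systems attaches ATG8 proteins (the LC3 and GABARAP families) to it. Receptors bind both cargo and ATG8 proteins, and are themselves consumed with the cargo. In colorectal and other epithelial cells the pathway is known for recycling amino acids and for clearing damaged mitochondria and ubiquitinated proteins. The steps below concern messenger RNA only; no protein, lipidation or flux was measured.

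Most of the set was slightly higher after PRSS22 knockdown. At an adjusted p under 0.05 in edgeR's quasi-likelihood test over all tested genes, 24 of 43 members rose (55.8%), 3 fell (6.98%) and 16 did not pass. Of all 13104 genes tested, 19.9% rose and 19.3% fell at the same threshold, 39.1% in either direction. The median log2 fold change was 0.135 over the members and -0.00564 over all tested genes. A positive value was found in 36 of 43 members, against 48.9% of all tested genes. The members were chosen with earlier results of these data known, so these contrasts describe the set and cannot test it. The changes were small: 5 members rose by at least 25% (11.6%) and 0 fell by at least 20%, where 5.84% and 7.3% of all tested genes did so. The 5 were MAP1LC3B, ATG4A, ATG12, ULK1 and RB1CC1. In bulk RNA a change in the number of transcripts per cell and a change in the make-up of the culture cannot be told apart.

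Levels of the members were moderate to high. Among the 9693 genes whose mean CPM lay in the members' range, from 10.4 to 592 CPM, 23.2% rose and 21.4% fell. The groups did not overlap for 29 of 43 members, 24 of them higher and 5 lower in shPRSS22. Of all tested genes, 24.2% were without overlap and higher and 24.3% without overlap and lower. The mean log2 level of the 43 members, relative to each gene's mean over the 6 libraries, was 0.060, 0.055 and 0.085 in shPRSS22 replicates 1 to 3, against -0.072, -0.081 and -0.046 in shCtrl replicates 1 to 3. All shPRSS22 values lay above all shCtrl values on that scale.

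**Figure D1:**
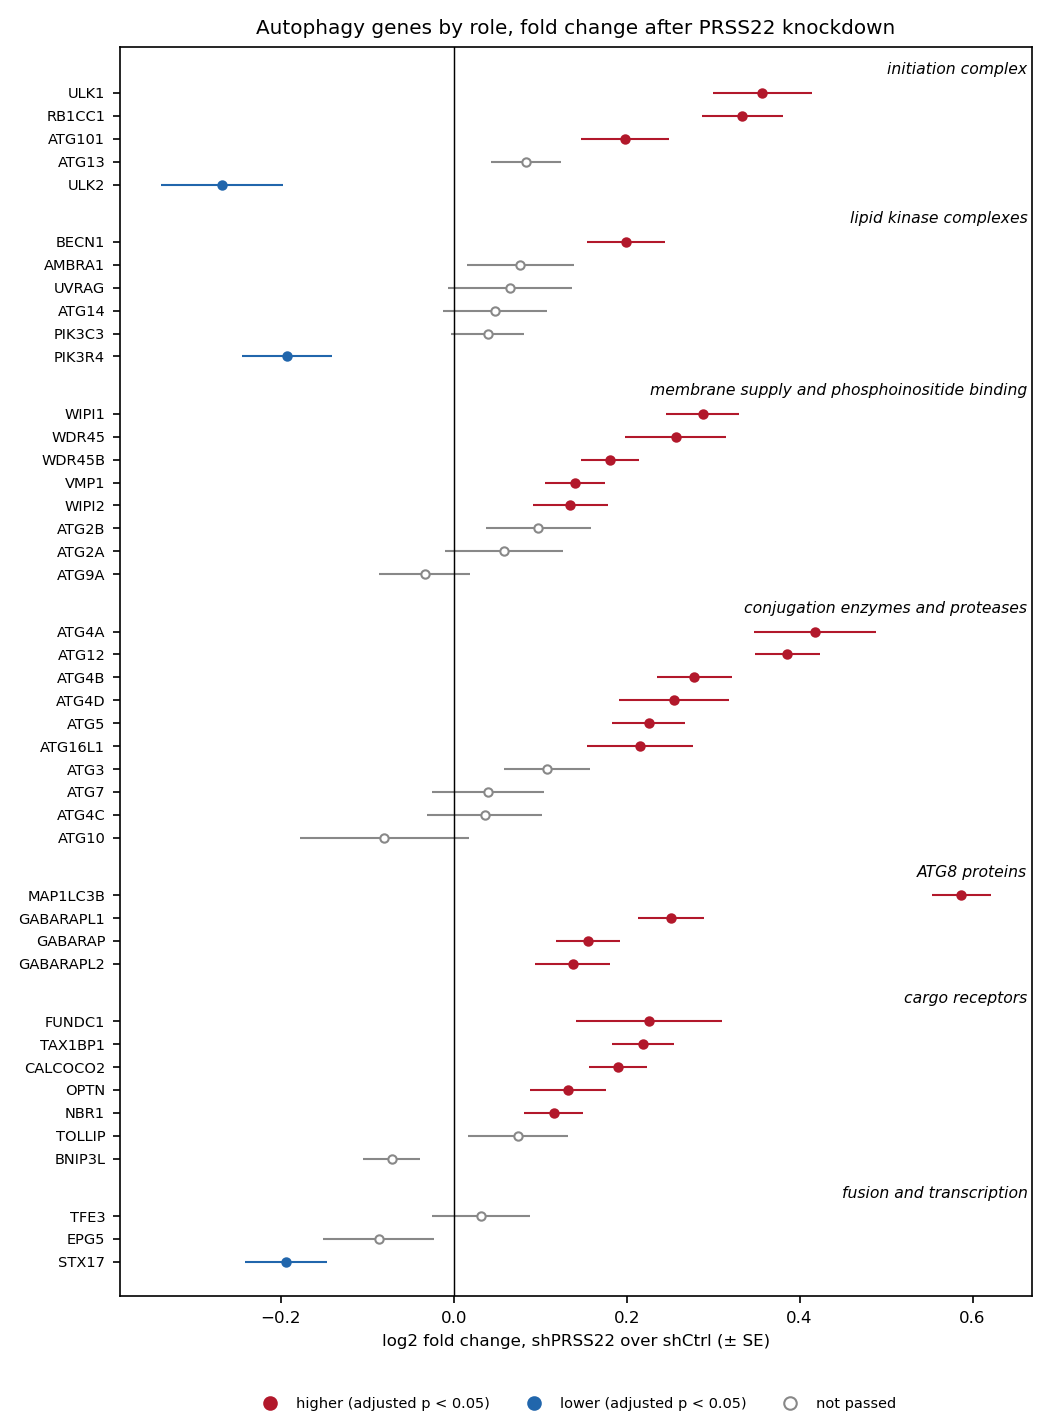
Log2 fold change of each of the 43 autophagy genes, shPRSS22 over shCtrl, with bars of 1 standard error, grouped by role; red points rose, blue points fell and open points did not pass an adjusted p of 0.05. MAP1LC3B stands furthest to the right at 0.59, and ULK2, STX17 and PIK3R4 are the 3 genes that fell.

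The ATG8 genes, whose products are anchored in the autophagosome membrane and bind the receptors, rose in 4 of 4 members. Their median log2 fold change was 0.20. The share of all tested genes that rose was 19.9%. MAP1LC3B, which encodes LC3B, the ATG8 protein most often used to mark autophagosomes, had 696, 718 and 718 CPM in shPRSS22 replicates 1 to 3, against 461, 470.0 and 488 CPM in shCtrl replicates 1 to 3. Every shPRSS22 library lay above every shCtrl library. The means were 710.4 ± 12.6 CPM in shPRSS22 and 473 ± 14.1 CPM in shCtrl (SD, n = 3 each), higher by 50.2% in shPRSS22 (log2 fold change 0.59, SE 0.0339, adjusted p = 3.55e-15), the largest rise of the set. Its locus (Entrez identifier 81631) spans chromosome 16 from 87383995 to 87404779 on the plus strand in GENCODE release 29 (GRCh38).

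MAP1LC3B shares near-identical coding sequence with MAP1LC3B2, and its estimated counts carried decimals in all 6 libraries, a mark of reads divided among genes. MAP1LC3B2 was assigned 5.66, 5.65 and 5.55 CPM in shPRSS22 replicates 1 to 3, against 3.34, 3.83 and 2.97 CPM in shCtrl replicates 1 to 3 (log2 fold change 0.73). With the counts of both added into 1 gene, a setting chosen after seeing the data, the level was 702, 724 and 723 CPM in shPRSS22 replicates 1 to 3, against 464, 474 and 491 CPM in shCtrl replicates 1 to 3 (log2 fold change 0.59, adjusted p = 3.16e-15). The fold change was the same to 2 decimals with and without the copy, which was assigned too few counts to move it by much. MAP1LC3A was at or near 0 counts in the libraries and MAP1LC3C at a few counts, and neither was tested.

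The GABARAP genes, which act later in autophagosome growth and closure, rose by less. GABARAPL1 stood at 140.3, 129.6 and 136 CPM in shPRSS22 replicates 1 to 3, against 115, 110.3 and 116 CPM in shCtrl replicates 1 to 3 (log2 fold change 0.25, SE 0.0386, adjusted p = 3.82e-06). GABARAP stood at 136, 145 and 144 CPM in shPRSS22 replicates 1 to 3, against 127, 126 and 129 CPM in shCtrl replicates 1 to 3 (log2 fold change 0.16, SE 0.0371, adjusted p = 0.00117). For both genes all shPRSS22 libraries were above all shCtrl libraries. GABARAPL2 stood at 108, 112 and 103 CPM in shPRSS22 replicates 1 to 3, against 93.8, 95.4 and 104 CPM in shCtrl replicates 1 to 3 (log2 fold change 0.14, SE 0.0431, adjusted p = 0.0112), and here the groups overlapped, since shPRSS22 replicate 3 was below shCtrl replicate 3. It no longer passed edgeR's test when shCtrl replicate 1 (adjusted p = 0.0879) or 2 (0.0676) was left out.

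In the deposited TPM, a measure scaled for transcript length, MAP1LC3B was also the most abundant of the 4, at 619.7 ± 11.2 TPM in shPRSS22 and 410.1 ± 14.00 TPM in shCtrl. GABARAPL2 followed at 260.3 ± 7.11 TPM in shPRSS22 and 236 ± 14.2 TPM in shCtrl, then GABARAP at 225 ± 6.31 TPM in shPRSS22 and 201 ± 3.56 TPM in shCtrl and GABARAPL1 at 139 ± 8.29 TPM in shPRSS22 and 116 ± 3.48 TPM in shCtrl (SD, n = 3 each). Their summed level was 1244 ± 14.7 TPM in shPRSS22 and 963 ± 33.7 TPM in shCtrl. MAP1LC3B made up 49.8 ± 0.437% in shPRSS22 and 42.6 ± 0.353% in shCtrl of that sum, and its share was higher in each shPRSS22 library than in each shCtrl library. The share of GABARAP was 18.1 ± 0.468% in shPRSS22 and 20.9 ± 0.421% in shCtrl, that of GABARAPL2 20.9 ± 0.748% in shPRSS22 and 24.5 ± 0.609% in shCtrl and that of GABARAPL1 11.1 ± 0.57% in shPRSS22 and 12.04 ± 0.283% in shCtrl. Shares within 1 family sum to a fixed total, so these lower shares do not mean lower levels.

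**Figure D2:**
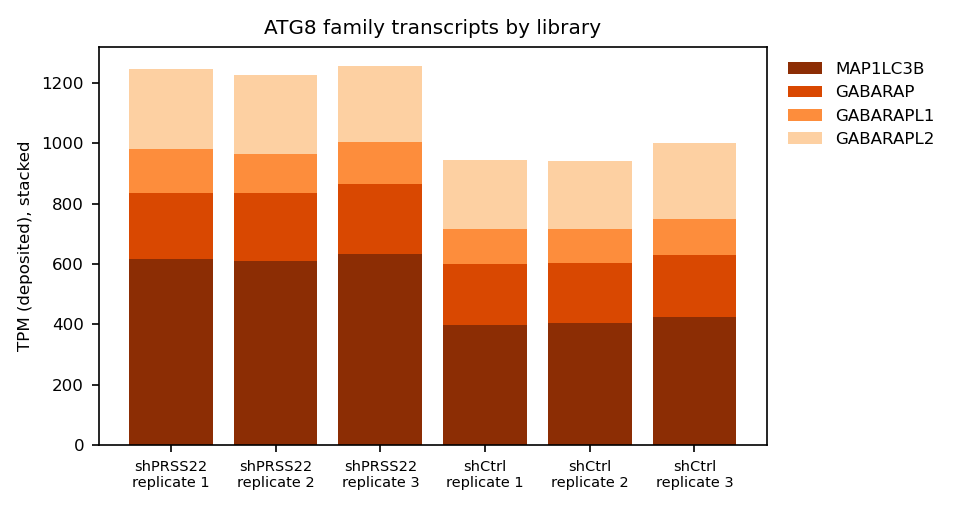
Deposited TPM of the 4 ATG8 genes stacked for each library, shPRSS22 replicates on the left and shCtrl replicates on the right. The stacks average 1244 TPM in shPRSS22 and 963 TPM in shCtrl, and the darkest block, MAP1LC3B, accounts for most of that difference.

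Upstream sequence is shown because MAP1LC3B had the largest rise of the set. RefSeq promoter windows (250 bases before to 50 bases after a transcript start, GRCh38.p14) were found for 36 of 43 members, in 44 windows. The 250 bases before the MAP1LC3B start listed there, chr16:87392086-87392335 on the plus strand, are printed 5′ to 3′, with the match to the core of the antioxidant response element, the motif bound by NRF2 with small MAF proteins, in capitals.
MAP1LC3B upstream: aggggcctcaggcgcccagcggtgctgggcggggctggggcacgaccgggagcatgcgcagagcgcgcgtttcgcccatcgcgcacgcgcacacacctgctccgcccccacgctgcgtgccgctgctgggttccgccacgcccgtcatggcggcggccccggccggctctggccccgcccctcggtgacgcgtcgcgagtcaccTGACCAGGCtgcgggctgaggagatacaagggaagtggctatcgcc
That core was searched as TGACNNNGC on both strands. It matched windows of 4 members, each printed over 30 bases of the gene's strand with the match in capitals.
MAP1LC3B, chr16:87392279-87392308: cgcgagtcaccTGACCAGGCtgcgggctga
ATG101, chr12:52069847-52069876: gtgtgcttctgTGACTACGCggatgttgtg
CALCOCO2, chr17:48830895-48830924: ccgctcctgggGCCCGGTCAcctgaacact
TOLLIP, chr11:1309809-1309838: gacaaccgtcaTGACTGGGCatgcgcaaac
The match in CALCOCO2 is on the other strand. The matches begin 46, 120, 129 and 195 bases before the start. Of these genes MAP1LC3B, ATG101 and CALCOCO2 rose and TOLLIP did not pass. The core was present in 9.09% of the members' windows and in 13.3% of all 35116 windows. The E-box CACGTG, the core of the site bound by TFE3 and its relatives, matched windows of ATG3 and ATG14, 4.55% of the members' windows against 7.26% of all windows. Neither ATG3 nor ATG14 passed the test. A match to such short motifs is a description of the letters and not a binding site.

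Of the 5 initiation genes, 3 rose and 1 fell, where 19.9% of all tested genes rose and 19.3% fell. ULK1, the serine/threonine kinase that starts autophagosome formation and is restrained by mTORC1, stood at 40.9, 41.2 and 39.5 CPM in shPRSS22 replicates 1 to 3, against 32.1, 32.9 and 29.9 CPM in shCtrl replicates 1 to 3 (log2 fold change 0.36, SE 0.0574, adjusted p = 8.16e-06). ULK2, its closest relative with an overlapping role, moved the other way, at 24.8, 26.6 and 21.9 CPM in shPRSS22 replicates 1 to 3, against 29.04, 27.9 and 31.5 CPM in shCtrl replicates 1 to 3 (log2 fold change -0.27, SE 0.0705, adjusted p = 0.00292). In neither gene did the groups overlap.

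Per length, ULK1 was at 13.5 ± 0.395 TPM in shPRSS22 and 10.4 ± 0.434 TPM in shCtrl, and ULK2 at 8.14 ± 0.481 TPM in shPRSS22 and 9.89 ± 0.542 TPM in shCtrl (SD, n = 3 each). ULK1 thus made up 62.4 ± 0.74% in shPRSS22 and 51.4 ± 2.38% in shCtrl of the TPM of the pair, and the shares of the groups did not overlap. The summed level of the pair was 21.6 ± 0.872 TPM in shPRSS22 and 20.3 ± 0.197 TPM in shCtrl.

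RB1CC1, which encodes FIP200, the scaffold of the ULK complex, stood at 163, 159 and 186 CPM in shPRSS22 replicates 1 to 3, against 132, 135 and 137 CPM in shCtrl replicates 1 to 3 (log2 fold change 0.33, SE 0.047, adjusted p = 1.14e-05). The highest library, shPRSS22 replicate 3, lay well above the others, and the groups did not overlap. ATG101, a stabilising partner of ATG13, also rose without overlap of the groups, at 63.97 ± 3.89 CPM in shPRSS22 and 55.7 ± 2.58 CPM in shCtrl (log2 fold change 0.20, SE 0.0509). ATG13, the adaptor between the kinase and FIP200, had 109 ± 4.23 CPM in shPRSS22 and 103 ± 3.78 CPM in shCtrl, a log2 fold change of 0.08 (SE 0.0407) that did not pass (adjusted p = 0.106).

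**Figure D3:**
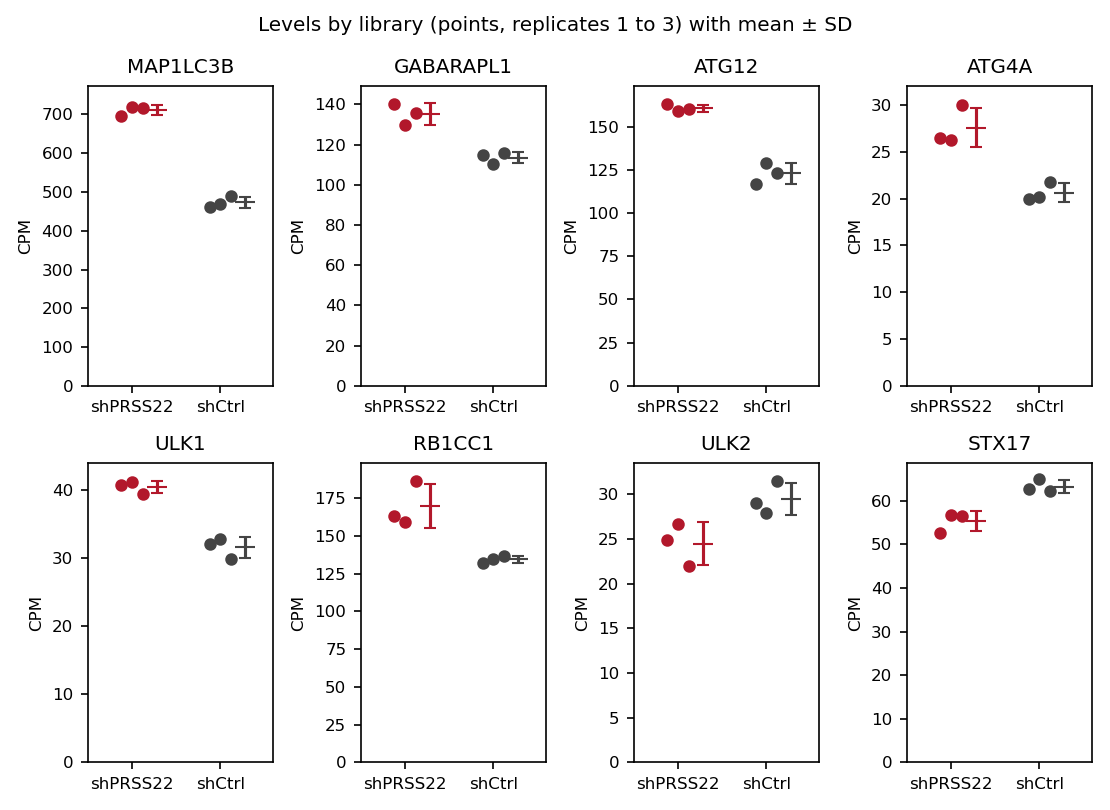
CPM of 8 autophagy genes in each library, shPRSS22 on the left and shCtrl on the right of each panel, with the mean and SD of 3 libraries beside the points; axes start at 0. MAP1LC3B, GABARAPL1, ATG12, ATG4A, ULK1 and RB1CC1 are higher and ULK2 and STX17 lower in shPRSS22, with no overlap of the groups in any panel.

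Of the 6 genes of the class III lipid kinase complexes, which produce phosphatidylinositol 3-phosphate, 1 rose, 1 fell and 4 did not pass. Of all tested genes 19.9% rose and 19.3% fell, so these counts do not set the complexes apart. Their median log2 fold change was 0.0563. That median was 0.0871 without shPRSS22 replicate 2, 0.0301 without shPRSS22 replicate 3 and 0.0361 without shCtrl replicate 2. BECN1, the Beclin 1 subunit, rose to 83.5 ± 3.55 CPM in shPRSS22, against 72.7 ± 3.39 CPM in shCtrl (log2 fold change 0.20, SE 0.0453, adjusted p = 0.000705). PIK3R4, the regulatory subunit also called VPS15, fell and stood at 44.5, 41.7 and 45.00 CPM in shPRSS22 replicates 1 to 3, against 49.9, 48.7 and 51.3 CPM in shCtrl replicates 1 to 3 (log2 fold change -0.19, SE 0.0519, adjusted p = 0.00354). The catalytic subunit PIK3C3 had a log2 fold change of 0.04 (SE 0.0421). ATG14, the subunit that directs the complex to autophagosome formation, had one of 0.05 (SE 0.0603). UVRAG, which replaces ATG14 in the endosomal complex, had one of 0.06 (SE 0.0717), and AMBRA1, a regulator that binds BECN1, one of 0.08 (SE 0.0615). None of these 4 passed the test.

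Among genes of membrane supply and phosphoinositide binding, 5 of 8 rose and 0 fell, against 19.9% and 19.3% of all tested genes. The median of the 8 was 0.14. The WIPI proteins, propeller-shaped readers of phosphatidylinositol 3-phosphate, held 4 of the 5 rises. WIPI1 stood at 97.7, 97.3 and 95.2 CPM in shPRSS22 replicates 1 to 3, against 76.1, 82.9 and 78.6 CPM in shCtrl replicates 1 to 3 (log2 fold change 0.29, SE 0.042, adjusted p = 1.66e-06). WDR45, also called WIPI4, stood at 34.4, 34.5 and 33.8 CPM in shPRSS22 replicates 1 to 3, against 28.6, 28.6 and 28.7 CPM in shCtrl replicates 1 to 3 (log2 fold change 0.26, SE 0.0583, adjusted p = 0.000711). The libraries of each group lay close together in both genes and the groups did not overlap.

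WDR45B, also called WIPI3, rose by 0.18 on the log2 scale (SE 0.0334), and WIPI2, which recruits ATG16L1, by 0.13 (SE 0.0433). WIPI2 did not pass with shPRSS22 replicate 3 left out (adjusted p = 0.0617), with shCtrl replicate 2 left out (0.0843) or in DESeq2 (0.0573). VMP1, a lipid scramblase of the endoplasmic reticulum whose gene also holds the microRNA gene MIR21, rose by 0.14 (SE 0.0345), at 260.2 ± 4.17 CPM in shPRSS22 and 236 ± 9.49 CPM in shCtrl. The lipid transfer proteins ATG2A, at 0.06 (SE 0.0685), and ATG2B, at 0.10 (SE 0.0611), and the vesicle scramblase ATG9A, at -0.03 (SE 0.0526) on the log2 scale, did not pass.

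Of the 10 conjugation genes, 6 rose and 0 fell, with a median of 0.22 (0.164 to 0.251 with 1 library left out). Among all tested genes, 19.9% rose and 19.3% fell. ATG12, the ubiquitin-like protein joined to ATG5, stood at 163, 159 and 160.3 CPM in shPRSS22 replicates 1 to 3, against 117, 129 and 123 CPM in shCtrl replicates 1 to 3 (log2 fold change 0.39, SE 0.0379, adjusted p = 8.54e-10). ATG5, its acceptor, ranged over 91.04 to 95.4 CPM in shPRSS22, against 77.8 to 83.7 CPM in shCtrl (log2 fold change 0.23, SE 0.0422, adjusted p = 7.14e-05). ATG16L1, which places the ATG12-ATG5 conjugate on membranes, ranged over 52.1 to 54.3 CPM in shPRSS22, against 40.02 to 50.1 CPM in shCtrl (log2 fold change 0.22, SE 0.0617, adjusted p = 0.007). The 3 genes of this complex thus rose, with no overlap of the groups in any of them. The lowest library for ATG16L1 was shCtrl replicate 2, and without it the log2 fold change was 0.12 and the call was lost (adjusted p = 0.0927).

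The ATG4 proteases cut ATG8 precursors and release ATG8 proteins from membranes. ATG4A stood at 26.5, 26.2 and 29.98 CPM in shPRSS22 replicates 1 to 3, against 19.96, 20.1 and 21.8 CPM in shCtrl replicates 1 to 3 (log2 fold change 0.42, SE 0.0707, adjusted p = 1.75e-05). ATG4B, the protease with the broadest activity, stood at 76.6, 77.8 and 77.3 CPM in shPRSS22 replicates 1 to 3, against 64.5, 62.1 and 64.4 CPM in shCtrl replicates 1 to 3 (log2 fold change 0.28, SE 0.0434, adjusted p = 4.97e-06). ATG4D also rose, at 29.98 ± 1.29 CPM in shPRSS22 and 25.1 ± 0.916 CPM in shCtrl (log2 fold change 0.25, SE 0.0637), whereas ATG4C had 25.5 ± 0.42 CPM in shPRSS22 and 24.9 ± 1.54 CPM in shCtrl and a log2 fold change that did not pass (log2 fold change 0.04, SE 0.0664, adjusted p = 0.704). Their summed level was 132 ± 1.58 TPM in shPRSS22 and 107 ± 3.75 TPM in shCtrl.

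The E1- and E2-like enzymes of conjugation did not pass. ATG7, the E1-like activating enzyme of both systems, had a log2 fold change of 0.04 (SE 0.0646). ATG3, the E2-like enzyme for ATG8 proteins, did not pass either (log2 fold change 0.11, SE 0.0497, adjusted p = 0.0861), although its shPRSS22 libraries, at 51.0 to 53.5 CPM, all lay above its shCtrl libraries, at 47.0 to 49.7 CPM. ATG10, the E2-like enzyme for ATG12, had -0.08 (SE 0.0979). Of the genes of the ATG12-ATG5-ATG16L1 complex and the proteases, 6 of 7 rose. Of the E1- and E2-like enzymes, 0 of 3 did. This division was made after the values were seen and was not tested. With 19.9% of all tested genes higher, a count of 0 among 3 genes does not set the enzymes apart.

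**Figure D4:**
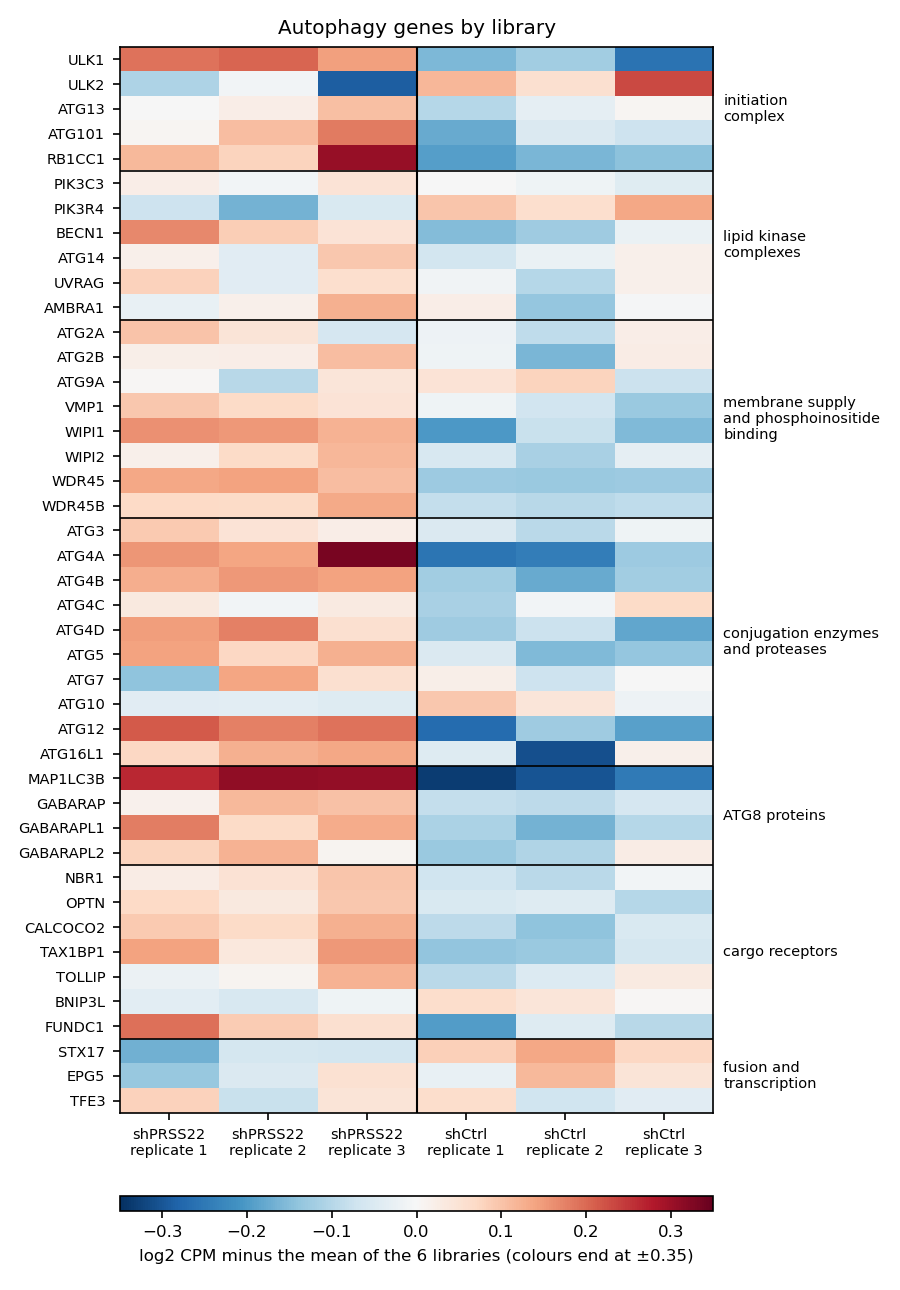
Log2 CPM of each autophagy gene minus its mean over the 6 libraries, with shPRSS22 replicates in the left 3 columns and shCtrl replicates in the right 3; red is above and blue below the mean. The shPRSS22 columns are mostly red from the membrane genes to the receptors, while ULK2, PIK3R4 and STX17 show the opposite pattern.

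Of the 7 cargo receptors, 5 rose and 0 fell (3 rose with DESeq2 and 3 without shCtrl replicate 3), with a median of 0.13. Among all tested genes, 19.9% rose and 19.3% fell. TAX1BP1, a ubiquitin-binding receptor for protein aggregates, stood at 238, 222 and 240.4 CPM in shPRSS22 replicates 1 to 3, against 197, 198 and 207 CPM in shCtrl replicates 1 to 3 (log2 fold change 0.22, SE 0.0359, adjusted p = 1.10e-05). CALCOCO2, also called NDP52, a receptor for bacteria and damaged mitochondria, stood at 298, 293 and 304 CPM in shPRSS22 replicates 1 to 3, against 262, 253 and 269 CPM in shCtrl replicates 1 to 3 (log2 fold change 0.19, SE 0.0336, adjusted p = 3.49e-05). In both, the groups did not overlap.

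NBR1, a receptor for aggregates and peroxisomes, stood at 215, 218 and 225 CPM in shPRSS22 replicates 1 to 3, against 201, 197 and 209 CPM in shCtrl replicates 1 to 3 (log2 fold change 0.12, SE 0.0344, adjusted p = 0.00786), and it did not pass with shCtrl replicate 2 left out (adjusted p = 0.0631). OPTN, a receptor for damaged mitochondria, stood at 71.7, 69.9 and 72.95 CPM in shPRSS22 replicates 1 to 3, against 65.8, 66.2 and 63.8 CPM in shCtrl replicates 1 to 3 (log2 fold change 0.13, SE 0.0441, adjusted p = 0.0168). Its call was lost without shPRSS22 replicate 3 (0.0538), without shCtrl replicate 3 (0.0669) and with DESeq2 (0.0729). TOLLIP, a ubiquitin-binding adaptor, stood at 37.00, 37.7 and 40.8 CPM in shPRSS22 replicates 1 to 3, against 35.1, 36.2 and 38.3 CPM in shCtrl replicates 1 to 3, with overlap of the groups and no call (log2 fold change 0.07, SE 0.058, adjusted p = 0.322).

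The set's mitochondrial outer membrane receptors had fold changes of opposite sign, of which only that of FUNDC1 passed. FUNDC1, at 17.3, 16.1 and 15.7 CPM in shPRSS22 replicates 1 to 3, against 13.2, 14.7 and 14.1 CPM in shCtrl replicates 1 to 3, rose (log2 fold change 0.23, SE 0.0842, adjusted p = 0.0322), the lowest level of the receptors in CPM. Its call was lost without shPRSS22 replicate 1 (0.13), without shCtrl replicate 1 (0.138), without shCtrl replicate 3 (0.0578) and with DESeq2 (0.138). BNIP3L, also called NIX, stood at 207, 204 and 209.8 CPM in shPRSS22 replicates 1 to 3, against 221, 218 and 212 CPM in shCtrl replicates 1 to 3 (log2 fold change -0.07, SE 0.0333, adjusted p = 0.0868). All its shPRSS22 libraries were below all shCtrl libraries, and the difference did not pass.

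Of the 3 genes of fusion and of transcriptional control, 0 rose and 1 fell. With 19.9% of all tested genes higher and 19.3% lower, counts among 3 genes do not set the group apart. STX17, the autophagosome's SNARE for fusion with lysosomes, stood at 52.6, 56.7 and 56.6 CPM in shPRSS22 replicates 1 to 3, against 62.7, 64.9 and 62.2 CPM in shCtrl replicates 1 to 3 (log2 fold change -0.19, SE 0.0478, adjusted p = 0.0016), with no overlap of the groups. EPG5, a tether that acts with it, had a log2 fold change of -0.09 (SE 0.0639) and did not pass. TFE3, a transcription factor of the MiT family that drives lysosomal and autophagy genes, ranged over 39.6 to 44.2 CPM in shPRSS22, against 39.8 to 43.7 CPM in shCtrl, with overlapping groups (log2 fold change 0.03, SE 0.0567). Its regulation is known to be mainly through location in the cell, which RNA does not show.

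A further 53 autophagy genes outside the set were described from lists by role, of which 49 were tested; 12 rose and 9 fell, 24.5% and 18.4% of them, with a median log2 fold change of 0.0265. These shares lie near those of all tested genes, 19.9% higher and 19.3% lower. Of 15 other cargo receptors, 4 rose and 2 fell. SQSTM1, the ubiquitin receptor p62 and a known NRF2 target, stood at 808, 820.0 and 899.8 CPM in shPRSS22 replicates 1 to 3, against 488, 516 and 517 CPM in shCtrl replicates 1 to 3 (log2 fold change 0.73, SE 0.0384, adjusted p = 1.18e-15), a larger rise than that of any member. RTN3, a receptor for tubular endoplasmic reticulum, rose by 0.28 on the log2 scale. The mitochondrial receptors FKBP8 and PHB2 fell by 0.15 and 0.13 on that scale. Mitochondrial receptors did not move as a class. BCL2L13 rose by 0.17 and BNIP3, at 0.08, did not pass, both named after their values were seen.

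Of 12 partners of the kinase complexes and upstream kinases, 5 rose and 2 fell (41.7% and 16.7%). Among all tested genes, 19.9% rose and 19.3% fell. RUBCNL, a promoter of autophagosome maturation, had the largest log2 fold change of these lists, 0.97 (SE 0.173), at a level of only 4.64 ± 0.281 CPM in shPRSS22 and 2.37 ± 0.245 CPM in shCtrl. TMEM41B, the scramblase that works beside VMP1, stood at 305 ± 9.80 CPM in shPRSS22 and 218 ± 11.4 CPM in shCtrl (log2 fold change 0.48, SE 0.0367). PRKAG1, a regulatory subunit of AMP-activated kinase, fell by 0.29 on the log2 scale, and SH3GLB1, a membrane-bending partner of UVRAG, by 0.18. Of 3 tested paralogs, MAP1LC3B2 rose and ULK3, a relative of ULK1, fell by 0.29.

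Fusion genes outside the set had 1 rise and 3 falls among 13 (7.69% and 23.1%), against 19.9% and 19.3% of all tested genes. YKT6, a SNARE of autophagosome fusion, rose by 0.14 on the log2 scale. VPS33A and VPS11, subunits of the tethering complex HOPS, fell by 0.30 and 0.24. VPS18, another HOPS subunit, named after its values were seen, was the other one to fall (log2 fold change -0.17). Its call was lost with DESeq2 (adjusted p = 0.18) and in 5 of the 6 settings that leave out 1 library (0.0601 to 0.223). The list had 2 rises without shCtrl replicate 1 and 2 without shCtrl replicate 3. Of 6 transcriptional regulators, MITF, a relative of TFE3, rose to 16.1 ± 1.08 CPM in shPRSS22, against 11.03 ± 0.394 CPM in shCtrl (log2 fold change 0.55, SE 0.0894). The regulators had 2 rises without shPRSS22 replicate 2. ZKSCAN3, a repressor of autophagy genes, fell by 0.21 (adjusted p = 0.04), a call lost with DESeq2 (0.172) and in 5 of the 6 settings that leave out 1 library (0.0627 to 0.137).

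**Figure D5:**
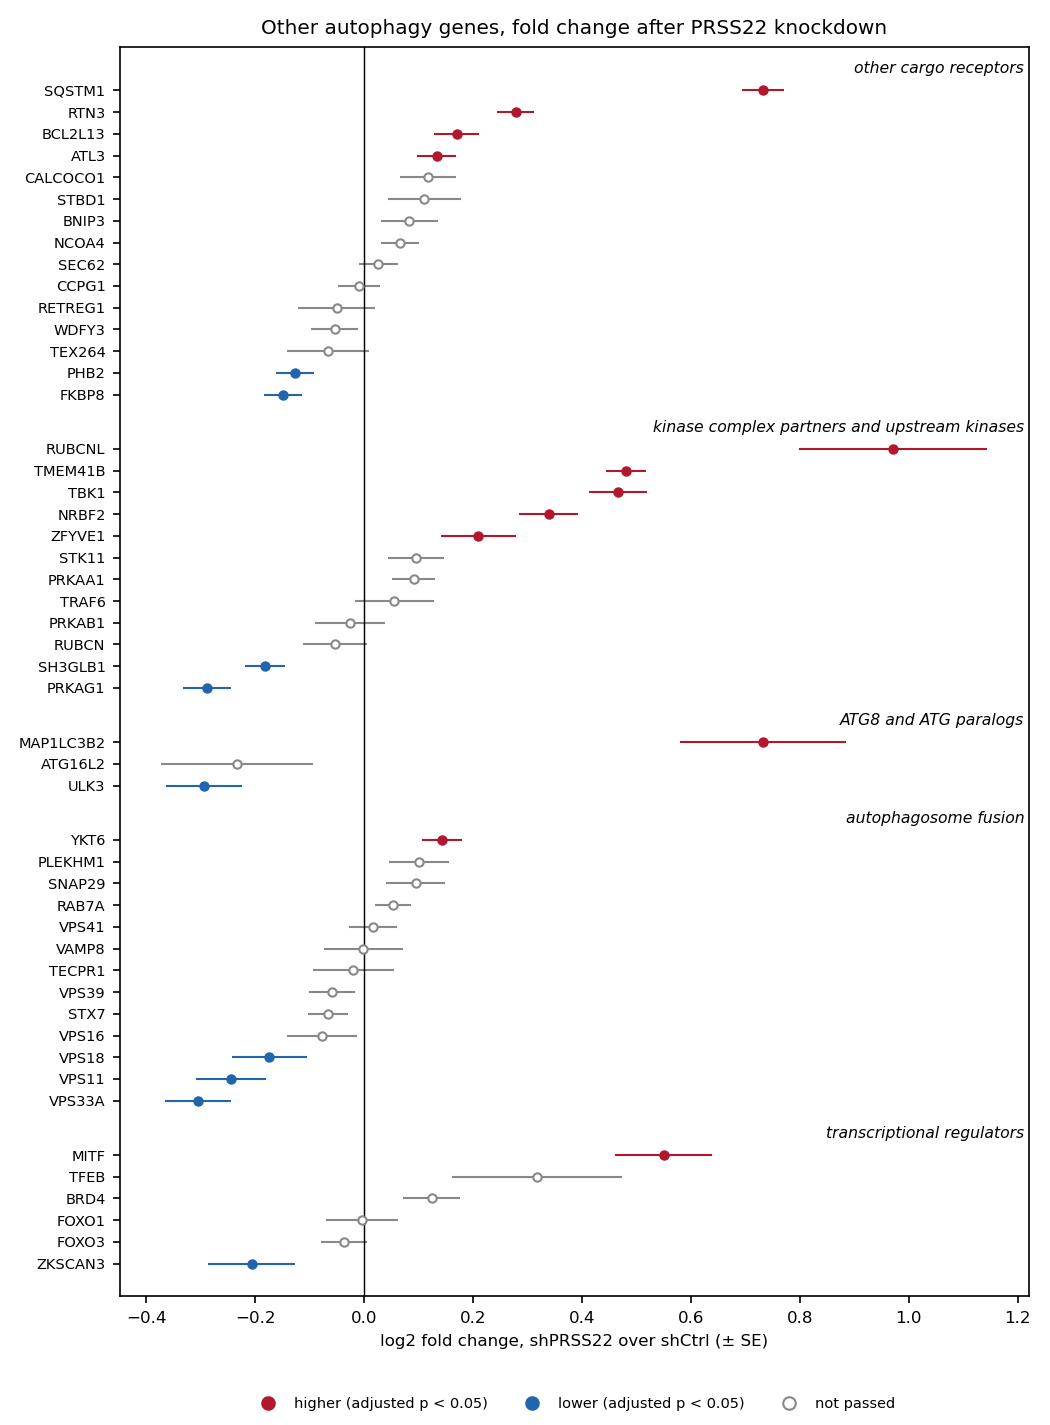
Log2 fold change of 49 tested autophagy genes outside the set, shPRSS22 over shCtrl, with bars of 1 standard error, grouped by role; colours as for the 43 genes. RUBCNL lies furthest right at 0.97 with a wide bar, and SQSTM1 at 0.73 with a narrow one.

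Library totals ranged from 15332449 to 15466647 estimated counts in shPRSS22 and from 14920523 to 15164328 in shCtrl, and the coefficient of variation between libraries beyond counting noise was 2.97%. The colorectal epithelial markers, 7 of 8 of which were in the table, summed to 5002 to 5204 TPM in shPRSS22 and 5085 to 5325 TPM in shCtrl. CDH1, the adhesion protein E-cadherin, was the 1 of 6 tested among them that rose (log2 fold change 0.15, SE 0.0339, adjusted p = 0.000901), without overlap of the groups. Markers of differentiated intestinal cells summed to 12.99 TPM in shPRSS22 replicate 1, 2.02 and 1.70 TPM in shPRSS22 replicates 2 and 3, and a lower level in every shCtrl library, where the minimum was 0.85 TPM. KRT20 was the tested gene among them and rose (log2 fold change 1.29), but with shPRSS22 replicate 1 left out KRT20 stood at 0.80 on the log2 scale and did not pass (adjusted p = 0.0501). Without shPRSS22 replicate 1, 23 members rose and 3 fell. Fibroblast markers summed to 8.24 to 10.1 TPM in shPRSS22 and 6.99 to 9.07 TPM in shCtrl. Nearly all of that was COL1A1, with means of 8.68 TPM in shPRSS22 and 8.15 TPM in shCtrl. Leukocyte markers summed to 18.7 to 22.5 TPM in shPRSS22 and 16.5 to 18.3 TPM in shCtrl. Nearly all of that was CD68, with means of 20.3 TPM in shPRSS22 and 17.0 TPM in shCtrl. Of the leukocyte markers CD68, also found in lysosomes of other cells, was the tested one and rose (log2 fold change 0.24, SE 0.0874, adjusted p = 0.0271). Its groups overlapped, and the call was lost when any of shPRSS22 replicates 1 and 2 and shCtrl replicates 1 and 3 was left out (adjusted p up to 0.14). Endothelial markers summed to 0.43 to 0.59 TPM in shPRSS22 and 0.29 to 0.55 TPM in shCtrl, with CDH5 at 0 in all 6 libraries. The part of these markers in the members' differences was not tested.

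Some member values carry an uncertainty of assignment. No strand marking is described, and 17 members share exonic bases with another gene of the table, 16 of them with a gene on the opposite strand. WIPI1 shares 828 bases with ARSG, which fell (log2 fold change -0.84), and ATG12 shares 378 bases with AP3S1, which rose (0.24). BECN1 shares 300 bases with PSME3, which fell (-0.11), and 795 with CNTD1. ATG10 shares 374 bases with the far more abundant RPS23, which fell (-0.22). MAP1LC3B shares 150 bases with FBXO31 on the opposite strand, which did not pass (0.04). ATG7 shares 1596 bases with VGLL4, which rose (0.15), and ATG2B shares 419 with GSKIP, which rose (0.67). Counts with decimals in all 6 libraries were found for 5 members: MAP1LC3B, BECN1, WIPI1, ATG4D and ATG7. The part of such shared reads in these fold changes was not tested, apart from the sum with MAP1LC3B2, which could move little. The authors' deposited table lists 20 members with a q-value under 0.05 as higher in shPRSS22 and 3 as lower. Of its 17269 genes, 3155 had a q-value under 0.05 in either direction. Its log2 fold changes for the members differed from those given here by at most 0.0049.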

How the data were processed

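Poly(A) RNA of HCT116 cells was sequenced in 3 shPRSS22 and 3 shCtrl libraries. The authors deposited 1 table of 17269 genes. Per the file headers it holds for each library an estimated count, FPKM, TPM and a scaled read count (signal), and the authors' own log2 fold change, p-value and q-value. The builds and tools named in the submitters' processing notes are GRCh38.p13, RSEM 1.3.1, Bowtie2 2.3.4.3, HISAT2 2.2.1, FastQC 0.12.1, R 4.3.1 and DESeq2 1.4.5, with no role stated. The scaled counts and group means were not used.

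The estimated counts were rounded and tested with edgeR 4.0.16 in R 4.3.3 (filterByExpr, TMM scaling, robust glmQLFit, glmQLFTest, two-sided), with Benjamini-Hochberg adjustment over the 13104 tested genes and a threshold of 0.05. CPM used the TMM-scaled totals of those genes, and the SE was the fold change divided by the square root of F. The fit was tested on simulated data. Deposited TPM served for levels between genes. Genes were named by this rule: values by library for the 8 largest rises and up to 8 falls that passed without overlap, the ATG8 genes and the receptors, and up to 2 called genes per direction in each list of other autophagy genes. Members and lists were chosen with earlier results of these data known. Alternatives were RLE factors, DESeq2 1.42.0, other filters, the replicate number as a block and leaving out each library. Positions came from GENCODE release 29 and promoter sequences from RefSeq. Library totals stand with the results, and 3 libraries a group limit the precision.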

Additional observations from a re-analysis of the deposited data

How the results depend on the processing

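Member results changed little with the processing. Members higher numbered 21 with DESeq2 and 24 with RLE size factors, without a filter on low counts, with genes kept from a mean of 1 CPM and with the replicate number as a block; members lower numbered 3 in each, except 4 with the block. Leaving out 1 library gave 20 to 24 members higher, 3 lower and 4 to 5 higher by at least 25%. Members lower by at least 20% numbered 0 to 1, the 1 being ULK2 without shPRSS22 replicate 2. The median log2 fold change of members ran from 0.119 to 0.143. In all, 18 members that rose and 3 that fell kept their call in every setting listed, and none was called in the opposite direction. The number of genes higher was 1883 with DESeq2 and of genes lower 1712. The replicate numbers were not taken as pairs: the deviations of same-numbered libraries correlated at 0.0842, 0.0939 and 0.196, although each of the 6 libraries correlated best with its own number. With the replicate block the number of genes higher was 2782 and of genes lower 2747, and BNIP3L was the member gained (adjusted p = 0.0487). The share of MAP1LC3B among ATG8 transcripts in shPRSS22 was 49.8% with FPKM in place of TPM.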
